A study of Mus musculus with 8 samples.

Results

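The T cell receptor alpha gene segments were taken as all rows of the count table with a symbol that starts with Trav or Traj, together with Trac. This gave 189 of 47937 rows, namely 128 Trav rows, 60 Traj rows and Trac. All lie on the plus strand of chromosome 14 of the mouse GRCm38 build. Of the 128 Trav rows, 20 are annotated as pseudogenes, and of the 60 Traj rows, 9.

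RNA was sequenced from sorted CD8 single-positive (CD8SP) thymocytes that carried surface TCRβ and high MHC-I. The 4 Ndrg3 ctrl libraries came from Ndrg3 +/fl;Lck-cre+ mice and the 4 Ndrg3 TKO libraries from Ndrg3 fl/fl;Lck-cre+ mice, all aged 6 to 7 weeks. Both groups carried the Cre, which the proximal Lck promoter drives in developing T cells, and the controls carried 1 floxed and 1 intact Ndrg3 allele. Each library is labelled as a biological replicate, so p-values measure the spread between such replicates.

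The alpha chain is assembled in double-positive (DP) thymocytes by joining a V segment (Trav) to a J segment (Traj), and splicing then joins the product to the constant region (Trac). The V segments lie upstream of the J segments. Rearrangement usually begins with proximal V and the J segments on the V side of the cluster, and later rounds on the same chromosome replace the product with more distal V and J segments nearer the constant region (the C side). Cells that stay longer in the DP stage can therefore use more distal V and more C-side J segments. Some innate-like T cells use fixed combinations: invariant natural killer T (NKT) cells use Trav11 with Traj18, and mucosal-associated invariant T cells use Trav1 with Traj33. Trac is common to all of them.

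The J segments are short, and most code for a phenylalanine-glycine-any-glycine motif. Codons for this motif, read in any frame with either phenylalanine codon, were found on the coding strand of 43 of the 60 Traj rows (71.7%), and of 3 of the 128 Trav rows (2.34%). The search on the opposite strand of the Traj rows found 0 of 60. By annotation, 42 of 51 functional Traj rows and 1 of 9 pseudogenes held them. The sequences below, from the GENCODE M21 transcripts, are for the invariant J segments Traj18 and Traj33, for the first tested row (Traj58), for the functional row with the highest count (Traj6), and for pseudogenes named in the results. Capitals mark the motif, which was not found in Traj33, Traj51, Traj14 or Traj1. Traj33 is annotated as functional and has codons for tryptophan, glycine, serine and glycine, which the search for phenylalanine codons did not cover.
Traj18, chr14:54200777-54200842: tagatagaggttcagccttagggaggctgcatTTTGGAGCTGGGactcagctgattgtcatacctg
Traj33, chr14:54185358-54185414: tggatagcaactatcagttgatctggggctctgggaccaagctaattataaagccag
Traj58, chr14:54157280-54157342: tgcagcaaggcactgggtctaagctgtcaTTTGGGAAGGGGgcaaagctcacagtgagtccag
Traj6, chr14:54212688-54212749: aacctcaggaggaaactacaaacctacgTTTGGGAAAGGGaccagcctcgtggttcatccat
Traj51, chr14:54166239-54166281: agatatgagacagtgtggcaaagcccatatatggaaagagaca
Traj14, chr14:54205111-54205144: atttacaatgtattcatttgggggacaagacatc
Traj1, chr14:54218814-54218842: gtgtgcagatagctgctccatctttcctg

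Many mouse V segments exist in near-identical copies, named with d or n, because a stretch of the locus is repeated. Of the 128 Trav transcripts, 34 fall in 17 pairs with identical sequence. Trav11 and Trav11d, the V segments of the invariant NKT receptor, did not differ at any of 342 bases compared (0 mismatches). The pseudogene Trav11n differed from Trav11 at 8 of 343 bases. Bases 61 to 340 of both spliced transcripts are shown with the 6 differences in capitals.
Trav11, gene at chr14:53519303-53519859: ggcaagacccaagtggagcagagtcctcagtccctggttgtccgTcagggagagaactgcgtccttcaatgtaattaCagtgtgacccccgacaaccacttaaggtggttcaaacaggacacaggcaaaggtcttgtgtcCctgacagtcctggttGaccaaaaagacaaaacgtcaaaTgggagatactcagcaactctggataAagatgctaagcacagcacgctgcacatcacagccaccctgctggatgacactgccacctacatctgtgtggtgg
Trav11n, gene at chr14:53135122-53135678: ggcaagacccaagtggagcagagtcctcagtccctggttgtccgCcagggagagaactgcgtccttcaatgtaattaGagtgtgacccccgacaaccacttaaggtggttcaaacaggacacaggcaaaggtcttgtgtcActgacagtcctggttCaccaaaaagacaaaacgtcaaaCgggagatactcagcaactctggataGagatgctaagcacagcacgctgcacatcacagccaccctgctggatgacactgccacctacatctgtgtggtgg

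Libraries held between 21126698 and 32668081 counts. Ndrg3 itself fell: normalized counts averaged 2336 ± 28.9 in ctrl and 1500 ± 87.2 in TKO libraries (SD, n = 4 each; log2 difference -0.64, SE 0.05, edgeR adjusted p = 1.04e-05). Only an exon is floxed, so counts over the whole gene need not reach 0. A normalized count is a count scaled to the mean library size after TMM normalization. Genes of the CD8 lineage were high (Cd8a 39568 ± 554 in ctrl and 39110 ± 971 in TKO libraries), and Cd4 was near the bottom of the range (19.3 ± 15.9 and 16.3 ± 4.07). Of the erythroid list, Hbb-bs, Hbb-bt and Hba-a1 had 0 counts in every library. Libraries numbered 2 in both groups and number 3 of the TKO group had 362 to 443 CPM (counts scaled to library size) on Y-linked genes, against 33.3 to 55.3 in the other 5, so animals of both sexes contributed, and unevenly.

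No alpha segment passed the test between Ndrg3 TKO and Ndrg3 ctrl cells. Of 71 tested Trav rows, 57 tested Traj rows and Trac, 0 had an edgeR adjusted p under 0.05, beside 1.15% of all 14633 tested genes. At so low a share few or none of these rows would be called, so 0 is not read as a trait of them. At an unadjusted p under 0.05 there were 1 Trav row (Trav1) and 1 Traj row (Traj51), whereas 10.9% of all tested genes were under that value. DESeq2 also called 0 Trav and 0 Traj rows. The median log2 difference (TKO minus ctrl) was 0.01 over the tested Trav rows and 0.10 over the tested Traj rows, beside -0.0033 over all tested genes. Of the tested rows, 37 of 71 Trav and 42 of 57 Traj rows had a difference above 0. The spread between libraries was wider for these rows than for genes in general (median biological coefficient of variation 0.140 for Trav, 0.164 for Traj and 0.0919 for all genes). A row of median precision had an SE of 0.18 on the log2 scale. Differences as wide as 0.50 (Trav1) and 0.56 (Traj51), in rows with means of only 47.3 and 29.1 normalized counts, did not pass the test. Bulk libraries cannot tell fewer cells that use a segment from less RNA per cell.

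Trac, the constant region, was the most abundant member. Its normalized counts were 17009, 18022, 16053 and 15535 in Ndrg3 ctrl libraries 1 to 4, and 16210, 17026, 15778 and 16189 in Ndrg3 TKO libraries 1 to 4. The 2 groups overlapped, and the log2 difference was -0.03 (SE 0.06, edgeR adjusted p = 0.892 in the table of class sums). The CD3 chains and beta constant regions (Trbc1, Trbc2, Cd3e, Cd3d, Cd3g and Cd247) accompany the alpha chain on the cell surface. They were likewise not called (0 of 6, beside 1.15% of all tested genes), with a median log2 difference of 0.03.

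The summed Trav rows varied little between libraries. They came to 7234, 7413, 7262 and 7099 normalized counts in Ndrg3 ctrl and to 7029, 7308, 7337 and 7034 in Ndrg3 TKO libraries. The log2 difference of the sum was -0.01 (SE 0.04, 95% interval -0.10 to 0.07, edgeR adjusted p = 0.938).

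The summed Traj rows varied far more between libraries of the same group. They came to 9738, 8372, 13337 and 12221 normalized counts in Ndrg3 ctrl and to 13165, 9246, 11599 and 12896 in Ndrg3 TKO libraries. Libraries numbered 2 were the lowest of both groups, and the groups overlapped. The log2 difference was 0.10 (SE 0.17, 95% interval -0.23 to 0.44, edgeR adjusted p = 0.878), and it turned to -0.0062 without Ndrg3 ctrl library 2. The Traj sum was 46.5% to 83.1% of the Trac count across libraries, whereas the Trav sum was 41.1% to 46.5%. The summed count of genes annotated as sense intronic, which lie within introns of other genes, was also lowest in the libraries numbered 2 of both groups (15917 in ctrl and 20235 in TKO) and ranged from 20817 to 27331 in the others. These total RNA libraries retain unspliced transcripts, in which J segments downstream of the one in use still lie in the intron before Trac. A count on a Traj row is therefore either a J in use or a J in that intron, and the 2 cannot be told apart here. The part of unspliced RNA in the spread of the Traj sums was not tested.

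**Figure D1:**
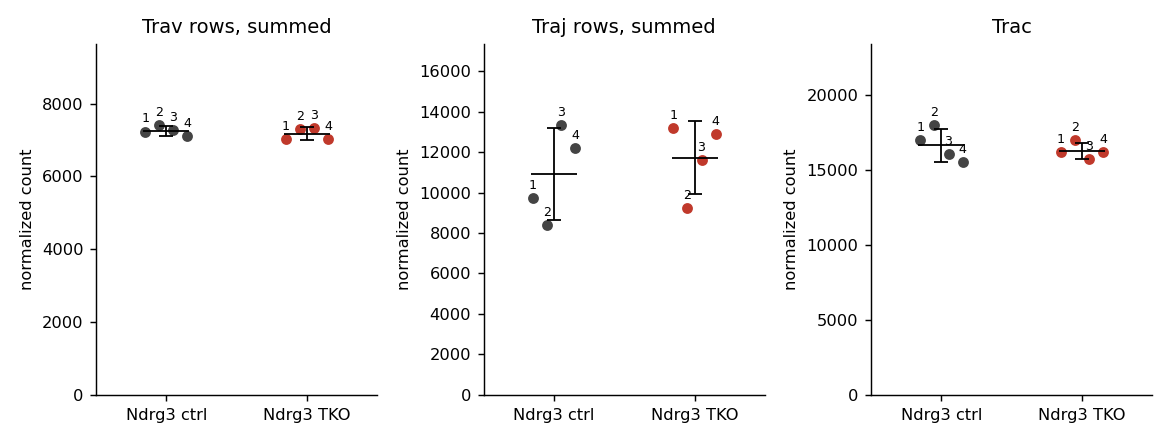
Normalized counts of the summed Trav rows, the summed Traj rows and Trac in each library (numbered points; grey, Ndrg3 ctrl; red, Ndrg3 TKO), with the mean and SD (n = 4 per group) in black. Trav and Trac stay within a narrow band, whereas the Traj sum runs from 8372 to 13337 and the groups overlap in every panel.

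Along the J cluster the counts climbed from the V side to the C side in every library. Spearman's rho between a row's order and its count per base was 0.860 to 0.893 over 60 rows, a description over neighbouring segments that share libraries. Traj58, the first tested row, had 8.53 to 11.8 normalized counts in ctrl and 8.18 to 18.2 in TKO libraries, and Traj6, near the C side, had 357 to 551 and 414 to 559. The V-side 20 rows took 9.31% ± 0.389 of the Traj counts in ctrl libraries, the middle 20 rows 38.8% ± 0.422 and the C-side 20 rows 51.9% ± 0.0958 (SD, n = 4 each).

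On this slope, single segments stood above or below their neighbours in all 8 libraries. The count per base was divided by the median of the 2 rows on each side, or of those present at the ends of the cluster. It was above 1 in every library for 18 Traj rows, below 1 in every library for 17 and mixed for 25. Traj1, the last row, has neighbours on its V side only. Traj6 was at 1.79 times and Traj27 at 1.61 times its neighbours (mean of 8 libraries), whereas Traj19 was at 0.483 and Traj5 at 0.573. Traj18, the invariant NKT segment, was at 1.23 and Traj33 at 1.12. The 2 shortest rows, the pseudogenes Traj14 (34 bases) and Traj1 (29 bases), were at 2.18 and 1.95 times their neighbours, a scale on which segments shorter than a read are hard to compare.

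The 9 pseudogene J segments lay some above and some below the rows around them. Traj8 was at 0.734 and Traj55 at 0.611 times their neighbours, below 1 in all 8 libraries, and Traj36 was at 1.31. Traj14 had 277, 238, 327 and 411 normalized counts in ctrl and 371, 287, 306 and 395 in TKO libraries, and it was not called (log2 difference 0.11, SE 0.16, edgeR adjusted p = 0.849). Traj1, which ends the cluster, had 196, 147, 269 and 237 in ctrl and 257, 198, 228 and 235 in TKO libraries. Neither sequence holds the motif codons. In all, the 9 pseudogenes took 9.23% of the Traj counts, whereas the 20 Trav pseudogenes took 1.95% of the Trav counts.

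**Figure D2:**
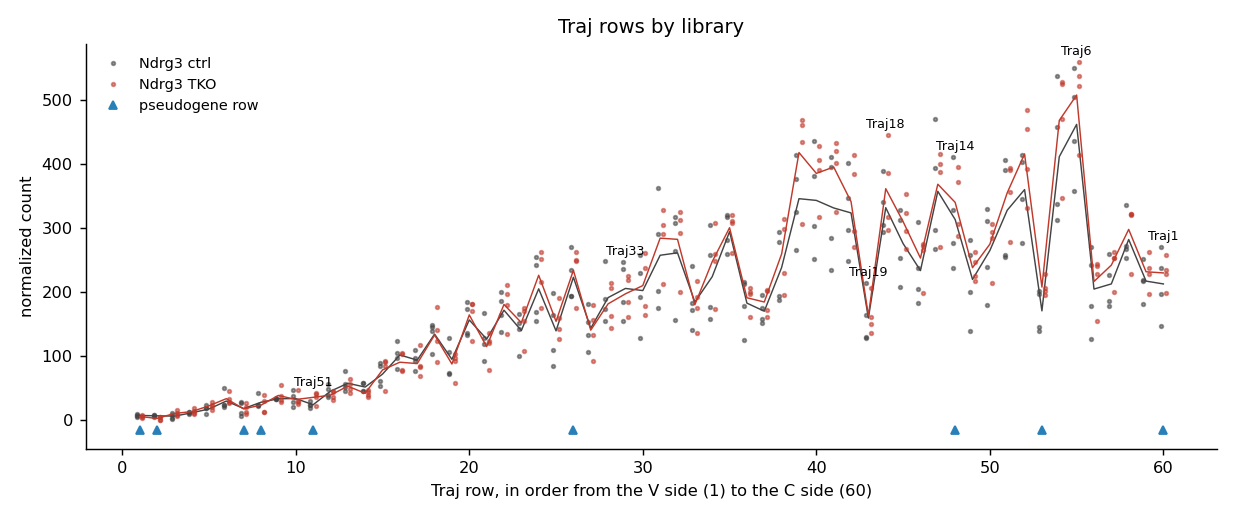
Normalized count of each Traj row (vertical axis) against its order in the cluster from the V side to the C side (horizontal axis), 1 point per library, with lines through the group means (grey, Ndrg3 ctrl; red, Ndrg3 TKO) and triangles under pseudogenes. Counts climb toward the C side in both groups, with a peak at Traj6 and a dip at Traj19 in both, and pseudogenes lie both above and below their neighbours.

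The 5 tested Traj rows with the highest counts, Traj6, Traj7, Traj9, Traj23 and Traj22, had log2 differences of 0.13 to 0.27. Traj23 had 325, 266, 414 and 377 normalized counts in ctrl and 461, 306, 435 and 468 in TKO libraries. The groups overlapped, since TKO library 2 fell inside the ctrl range (log2 difference 0.27, SE 0.15, edgeR adjusted p = 0.567).
The widest differences were in V-side rows with few counts. Traj51, a pseudogene, had 23.3, 18.5, 29.4 and 22.2 in ctrl and 35.5, 21.8, 40.6 and 41.8 in TKO libraries, so that TKO library 2 overlapped the ctrl range (log2 difference 0.56, SE 0.26, edgeR adjusted p = 0.460). Traj57 (0.38, SE 0.32) and Traj48 (-0.31, SE 0.19) were next, with edgeR adjusted p of 0.711 and 0.586.

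The invariant J segments were not called. Traj18 had 293, 304, 389 and 340 normalized counts in ctrl and 445, 297, 317 and 386 in TKO libraries. The groups overlapped (log2 difference 0.12, SE 0.13, edgeR adjusted p = 0.795). Traj33 had 184, 154, 247 and 236 in ctrl and 219, 160, 184 and 225 in TKO libraries, and its difference of -0.07 (SE 0.16, edgeR adjusted p = 0.911) was well within the spread.

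Trav11 could not be measured with any precision, whichever group was considered. It had raw counts of 2, 1, 3 and 2 in ctrl and of 2, 6, 6 and 4 in TKO libraries, and Trav11d had 2, 0, 1 and 0 in ctrl and 2, 1, 3 and 1 in TKO libraries. Neither row was tested, and most of these values lie at or below 3 counts per library, the limit that a count of 0 allows. Trav11n, which has sequence of its own, had 6.79, 4.27, 10.8 and 12.7 normalized counts in ctrl and 8.63, 10.9, 12.6 and 6.22 in TKO libraries. The sum of the 3 rows was 11.5 ± 4.31 in ctrl and 15.4 ± 4.79 in TKO libraries (SD, n = 4), with a log2 difference of 0.38 (SE 0.35, edgeR adjusted p = 0.747). Most of this sum was the pseudogene Trav11n (mean 9.11 of 13.4 normalized counts over 8 libraries), so it is not an estimate for Trav11. Among 7 markers of NKT cells, Zbtb16, the transcription factor that defines them, was at 7.09 ± 2.49 in ctrl and 1.61 ± 0.840 in TKO libraries and was too low to be tested. Klrb1c, which encodes NK1.1, was higher in TKO libraries (log2 difference 2.62, SE 0.36, edgeR adjusted p = 0.00149), and the chemokine receptor gene Cxcr6 was lower (-0.85, SE 0.12, edgeR adjusted p = 0.00413). Il2rb, Slamf1 and Tbx21 were not called (log2 differences -0.07, 0.07 and -0.06). The summed level of the list was 378 to 457 CPM in ctrl and 362 to 418 in TKO libraries, most of it Il2rb (9607 ± 812 and 9155 ± 723 normalized counts), which other CD8 cells also express, and Ncr1 was at 0 in all of them. The part of such cells in the counts of Trav11 and Traj18 was not tested.

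Low Trav rows were largely the rows without sequence of their own. Of 41 Trav rows in which under 1% of the 50-base windows occurred in no other member, the highest mean was 3.14 normalized counts and none was tested (0 of 41). Of 71 rows with at least 25% of such windows, the median was 62.7 and 61 were tested. Of 46 Trav rows with at most 3 counts in every library, 39 belonged to the former set. The other rows included Trav4-1, Trav15n-3, Trav3-2, Trav5-2 and Trav22, which had at least 25% of windows to themselves and still at most 3 counts. Shared rows crowd the distal and middle parts of the locus: of the 41, there were 20 in the distal, 19 in the middle and 2 in the proximal 42 rows. Any reading of distal use by counts is thus a reading of the rows that could be counted.

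**Figure D3:**
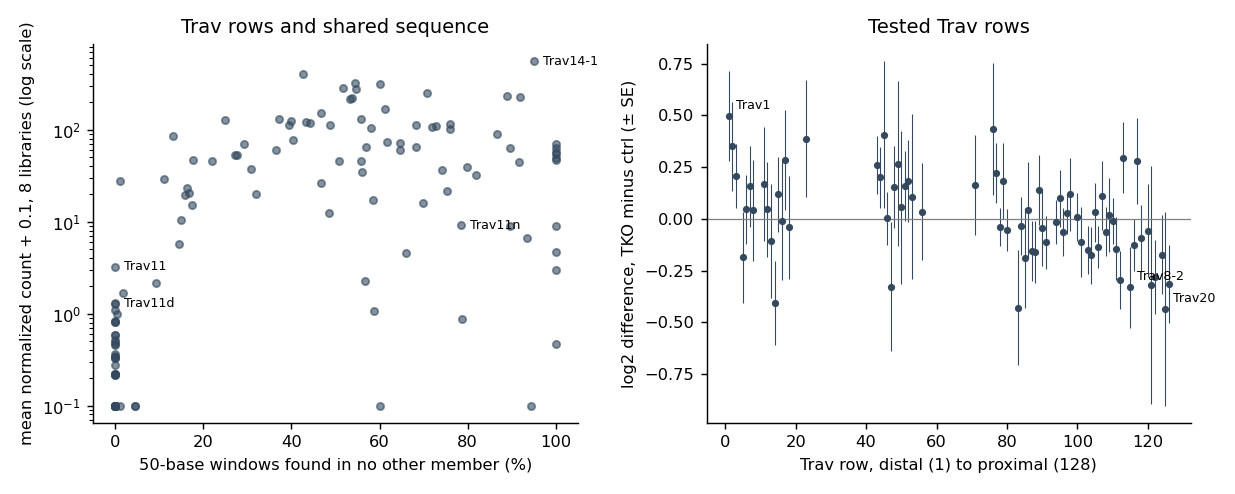
Left, mean normalized count of each Trav row over 8 libraries plus 0.1 (log axis) against the share of its 50-base windows found in no other member, with Trav11 (mean 3.14) and Trav11d among the rows that have no such windows. Right, log2 difference (TKO minus ctrl) with its SE for the 71 tested Trav rows in order from distal to proximal, where Trav1 is highest at 0.50 and Trav20 lowest at -0.43.

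Among rows that could be counted, V use was uneven, and Trav14-1 and Trav16n had the highest mean counts in both groups. By count per kilobase of exon (mean of 8 libraries), Trav14-1 led with 1394, followed by Trav16n with 967, Trav13-1 with 837 and Trav14-2 with 836. These rows differ in sequence of their own, so the order need not be the order of use. The share of 50-base windows found in no other member was 95.1% for Trav14-1 and 42.7% for Trav16n. For Trav13-1 and Trav14-2 it was 54.6% and 54.4%. Trav14-1 had 490, 491, 606 and 615 normalized counts in ctrl and 565, 492, 559 and 632 in TKO libraries (log2 difference 0.03, SE 0.10, edgeR adjusted p = 0.952). Trav16n, Trav14-2, Trav3-3 and Trav16 had differences of -0.04, -0.14, -0.06 and -0.12. Over 71 tested Trav rows, the log2 profiles of 2 libraries had a Pearson r of 0.941 to 0.964 within groups and 0.926 to 0.974 between groups. For the 57 tested Traj rows the ranges were 0.971 to 0.988 within and 0.965 to 0.987 between groups. These are correlations across genes, which are not independent replicates.

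**Figure D4:**
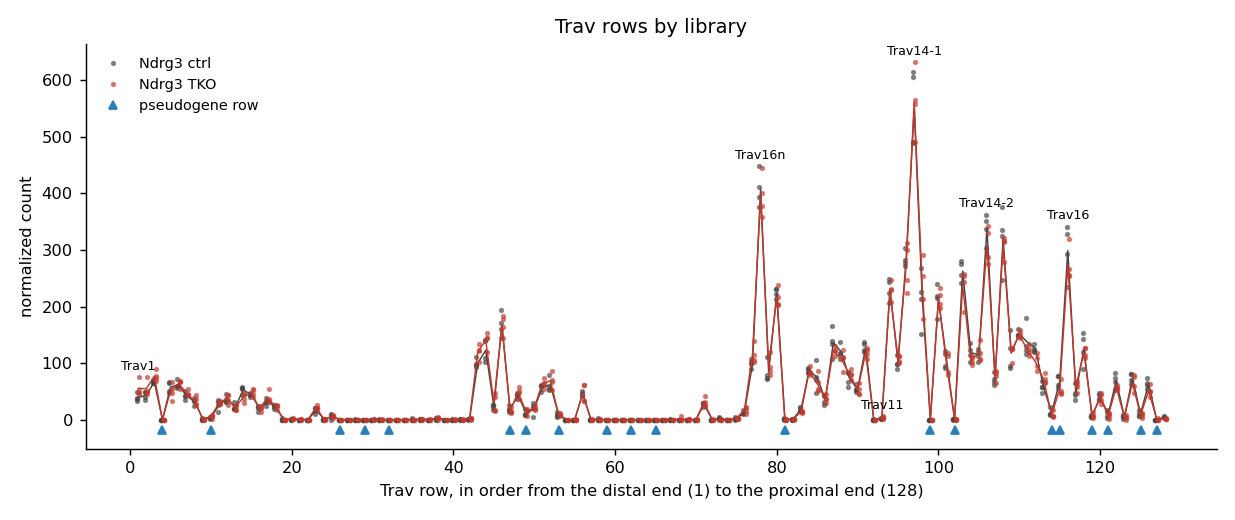
Normalized count of each Trav row (vertical axis) against its order from the distal to the proximal end of the locus (horizontal axis), 1 point per library, with lines through the group means (grey, Ndrg3 ctrl; red, Ndrg3 TKO) and triangles under pseudogenes. Trav14-1 is the highest row at 490 to 632, and long runs of rows between the distal end and Trav16n lie at or near 0.

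Family 14 took the most counts (19.4% of the Trav counts in ctrl and 19.2% in TKO libraries), then family 16 (11.4% and 11.3%), family 7 (9.34% and 9.24%) and family 13 (8.85% and 9.31%). Shared sequence limits these shares as it limits the rows. Of 20 tested families 0 were called, beside 1.15% of the features in that table. The family sums with the lowest p were family 1, which is Trav1 alone, and family 21, the proximal Trav21-dv12 alone (log2 difference -0.31, SE 0.19, edgeR adjusted p = 0.585).

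Trav1, the most distal V segment and the one used by mucosal-associated invariant T cells, had 38.8, 32.7, 36.2 and 48.7 normalized counts in ctrl and 48.0, 75.4, 53.2 and 45.3 in TKO libraries. The groups overlapped, and TKO library 2 was the highest (log2 difference 0.50, SE 0.22, edgeR adjusted p = 0.427). Without both libraries numbered 2 the difference was 0.24. At the other end, Trav21-dv12, the most proximal tested row, had 53.9 to 73.9 in ctrl and 40.9 to 63.8 in TKO libraries. Trav23, the last row of all, had 3.18 to 5.69 in ctrl and 0.909 to 2.67 in TKO libraries, too few to be tested.

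Among tested rows, the groups of 4 did not overlap for 2 Trav rows (Trav4-2 and Trav6-7-dv9, both lower in TKO libraries) and for 0 Traj rows, beside 7.04% of all tested genes. Trav6-7-dv9 had 120, 125, 133 and 122 normalized counts in ctrl and 86.3, 109, 118 and 95.1 in TKO libraries (log2 difference -0.29, SE 0.14, edgeR adjusted p = 0.466). Trav4-2 had 14.6 to 21.6 in ctrl and 12.4 to 14.5 in TKO libraries. Trav13n-3 (0.43, SE 0.32), which lies opposite an antisense gene, and the pseudogenes Trav20 (-0.43, SE 0.47) and Trav8-2 (-0.33, SE 0.20) had overlapping groups.

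Summed by position, no segment of the locus was called (0 of 6 sums, beside 1.16% of the features in that table). The distal 43 Trav rows, from Trav1 to Trav8d-2, came to 760, 711, 722 and 738 normalized counts in ctrl and to 754, 907, 789 and 760 in TKO libraries. TKO library 2 was the highest, and TKO libraries 1 and 4 lay inside the ctrl range (log2 difference 0.13, SE 0.07, 95% interval -0.01 to 0.27, edgeR adjusted p = 0.550). Without both libraries numbered 2 it was 0.05. The middle 43 rows differed by 0.04 (SE 0.06, edgeR adjusted p = 0.844) and the proximal 42 rows, from Trav7-4 to Trav23, by -0.06 (SE 0.05, edgeR adjusted p = 0.700). For Traj, the V-side, middle and C-side sums differed by -0.02, 0.09 and 0.13, with SEs of 0.17, 0.19 and 0.16 and edgeR adjusted p of 0.982, 0.903 and 0.830.

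A share of a class removes the differences between libraries in total J counts. It does not remove a difference in the part of J counts that lies in the intron before Trac. As shares of their class, distal V and C-side J counts were a little higher in TKO libraries. These and the mean Traj order were the 3 of 8 usage measures whose groups did not overlap, beside 7.04% of all tested genes. The 8 measures are not independent, because the shares of a class add up to the whole class. The C-side share and the mean Traj order are readings of the same Traj counts. The distal share of Trav counts was 10.5%, 9.59%, 9.94% and 10.4% in ctrl and 10.7%, 12.4%, 10.8% and 10.8% in TKO libraries. The groups did not overlap, with means of 10.1% ± 0.421 and 11.2% ± 0.826 (SD, n = 4). The nearest pair, ctrl library 1 (95% Wilson interval 9.83% to 11.2%) and TKO library 1 (10.04% to 11.5%), differed by less than their counting error. Without both libraries numbered 2, the means were 10.3% and 10.8%, and the difference fell from 1.06 to 0.479 percentage points. With the 71 Trav rows that have at least 25% of windows to themselves, it was 1.15 points.

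The C-side share of Traj counts was 51.7%, 51.9%, 51.9% and 52.0% in ctrl and 52.4%, 54.4%, 53.3% and 52.3% in TKO libraries. Again the groups did not overlap, with a difference of 1.20 percentage points (SE 0.495). Counting error gave each library an interval of ± 0.813 to 1.28 points, wider than the gap between the nearest libraries and wider than the spread among the ctrl libraries (SD 0.0958). Without both libraries numbered 2 the difference was 0.773 points. The highest shares, 54.4% and 53.3%, were in TKO libraries 2 and 3, which had high Y-linked counts (399 and 443 CPM). Ctrl library 2, which also had them (362 CPM), was at 51.9%. The part of sex in this difference was not tested. The mean order of the Traj counts, from 1 on the V side to 60 on the C side, was 39.8, 39.8, 39.8 and 39.8 in ctrl and 39.9, 40.6, 40.4 and 40.0 in TKO libraries, with a counting error (SE) of 0.107 to 0.172 per library. The other 5 usage measures overlapped between the groups. Means in ctrl and TKO libraries were 22.8% and 23.7% for the middle Trav share, 67.1% and 65.1% for the proximal Trav share, and 86.6 and 85.1 for the mean Trav order, from 1 at the distal to 128 at the proximal end. For Traj they were 9.31% and 8.46% for the V-side share and 38.8% and 38.5% for the middle share. No p is given for these shares, which are scores over members chosen together.

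**Figure D5:**
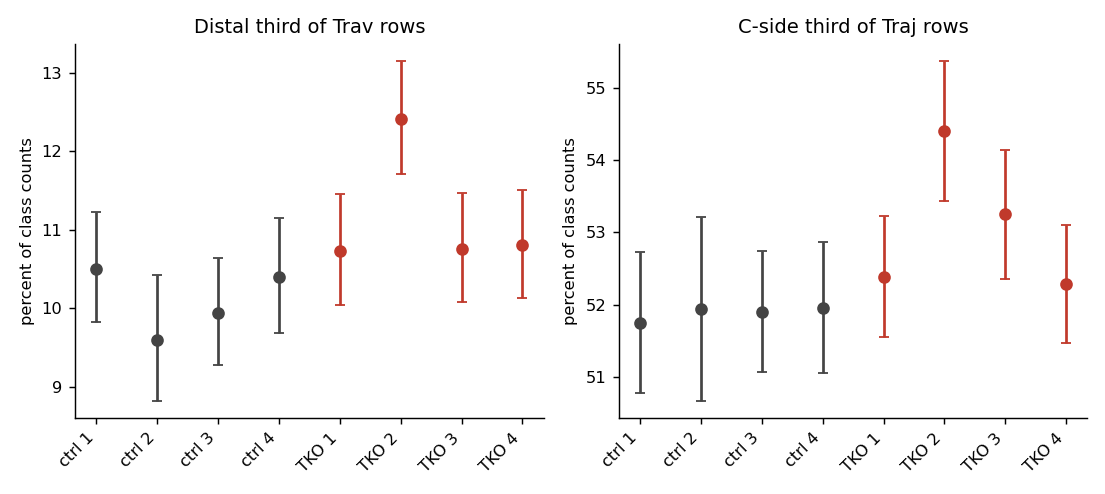
Share of Trav counts on the 43 distal rows (left) and of Traj counts on the 20 C-side rows (right), in percent of the class, for each library with its 95% Wilson interval for counting error (grey, Ndrg3 ctrl; red, Ndrg3 TKO; the vertical axes do not start at 0). TKO library 2 is the highest in both panels, at 12.4% and 54.4%, and the intervals of the other TKO libraries overlap those of the ctrl libraries.

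The genes that carry out or control this rearrangement were not called either. Over all tested genes 1.15% were called, a share at which lists as short as these mostly hold 0. Of 11 tested genes of the recombination machinery 0 passed, with a median log2 difference of -0.03. Polm (-0.22, SE 0.07) and Poll (-0.20, SE 0.08) were lower in TKO libraries, with edgeR adjusted p of 0.201 and 0.331. Rag1, which encodes a subunit of the recombinase, was at 95.8 ± 55.4 normalized counts in ctrl and 70.0 ± 44.5 in TKO libraries (SD, n = 4). Dntt, which encodes the polymerase that adds untemplated bases at the joins, was at 450 ± 61.2 in ctrl and 615 ± 83.8 in TKO libraries (log2 difference 0.45, SE 0.11, edgeR adjusted p = 0.0783). Of 8 regulators of alpha locus rearrangement 0 passed, with a median log2 difference of 0.06. Smarca4 (0.14), Myb (0.22) and Tcf12 (0.13) were higher in TKO libraries (edgeR adjusted p = 0.283, 0.340 and 0.401), whereas Rad21 (-0.08) and Hmgb1 (-0.04) were lower. The summed level of these regulators did not overlap between the groups, at 1351 to 1409 CPM in ctrl and 1422 to 1484 in TKO libraries. The groups did not overlap for 7.04% of all tested genes. The sum of 5 myeloid and dendritic genes did not overlap either, in the other direction. It was near the floor, at 1.35 to 2.03 CPM in ctrl and 0.902 to 1.32 in TKO libraries. The delta locus, which lies between the V and J segments and is removed by alpha rearrangement, had 5 tested genes and 0 called. Markers of DP thymocytes moved with the groups in sum: their level was 394 to 423 CPM in ctrl and 447 to 485 in TKO libraries. Most of this sum was Themis, which mature cells also express (11120 ± 280 normalized counts in ctrl and 12449 ± 465 in TKO libraries, edgeR adjusted p = 0.183), and 0 of 5 tested markers were called. Whether this sum, or that of the regulators, has a part in the distal and C-side shares was not tested.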

How the data were processed

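Total RNA of sorted CD8SP thymocytes was sequenced in 8 libraries, 4 per group. According to the study's methods and the labels, the authors removed ribosomal RNA, used cutadapt for trimming, STAR for alignment to GRCm38 and featureCounts for counting over GENCODE M9 genes; the deposited values are raw counts. Settings for strand, multi-mapped and overlapping reads are not given in the sources used here; they decide how reads shared by V copies, or spanning V, J and C, were counted. Symbols and transcripts came from GENCODE M21 (47224 of 47937 rows matched).

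Counts were tested with edgeR 4.0.16 (TMM, filterByExpr, robust quasi-likelihood test, Benjamini-Hochberg over the whole table, threshold 0.05), also after replacing rows by sums over classes, V families and positions; Trav and Traj rows were cut into 3 parts by order. Intervals of log2 differences are 1.96 SE of the edgeR fit, which includes the spread between libraries. With few libraries they are narrower than the edgeR test implies and do not reach 95%. For Trav6-7-dv9 the interval ran from -0.57 to -0.02, while the edgeR unadjusted p was 0.0534. The edgeR test of single rows was tried on counts simulated with known changes, which does not cover the sums, the shares or shared sequence. Alternatives were DESeq2 1.42.0, no filter, other scalings, a replicate block and leaving out libraries. Named were Trac, Trav11, Trav11d, Traj18, Trav1, Traj33, and per class the 5 highest rows, the 3 widest differences, the end rows and the highest pseudogene; other rows were named after their values were seen. The members and lists were chosen with earlier results of these data known; 1 list gene is not reported here. Wilson intervals and floors cover counting error only.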

Additional observations from a re-analysis of the deposited data

Results flagged for a closer look

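In 10 of 117 groups of 4 libraries, 1 library stood apart from the other 3 by Dixon's test, where chance gives about 5.85 (1 in 20). Ndrg3 TKO library 2 accounted for 6 of them: its Trav share was 12.4% distal (others 10.7% to 10.8%), 25.2% middle (23.2% to 23.3%) and 62.4% proximal (66.0% to 66.1%), its mean Trav order was 83.2 (85.5 to 85.8), and its normalized count was 75.4 for V family 2 (45.3 to 49.9) and 493 for V family 8 (425 to 431). The first 4 of these are readings of the same counts. The other flags were Trav3-3 in TKO library 4 (278, others 314 to 320), Trav13n-3 in ctrl library 4 (16.9, others 10.8 to 11.6), V family 5 in TKO library 1 (147, others 181 to 186) and V family 22 in TKO library 3 (2.90, the others at 0), which rests on 3 counts.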

How the results depend on the processing

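No Trav row, Traj row or V family passed the threshold under any alternative run (0 in each), while the number of genes called over the whole table moved from 168 to 306 with DESeq2, 274 without the filter and 90 to 158 without 1 library. The lowest adjusted p of any tested value was 0.0815, for Traj23 with the replicate block, and 0.218 or above under the others. Without 1 library each, the Trac difference ran from -0.0639 to 0.00701, the Traj sum from -0.00623 to 0.214, the V-side Traj sum from -0.126 to 0.105 and the middle Traj sum from -0.0244 to 0.206; V family 14 ran from -0.0738 to 0.0088, V family 16 from -0.0784 to 0.023, V family 7 from -0.0688 to 0.00233, Traj33 from -0.177 to 0.0332, Trav14-1 from -0.0343 to 0.0864, Trav16n from -0.101 to 0.00504, Trav3-3 from -0.168 to 0.0178, Traj58 from -0.00579 to 0.38 and Traj1 from -0.0312 to 0.238. With no change of sign, Traj18 ran from 0.00575 to 0.209, V family 11 from 0.193 to 0.526 and the C-side Traj sum from 0.0239 to 0.243. The V-side Traj sum also turned to 0.0143 when the rows were cut at their middle and to 0.0212 without both libraries numbered 2, and the middle sum to -0.013 scaled to the Traj sum. Without both libraries numbered 2, an alternative chosen after seeing the data, small differences turned for V family 16 (0.00315) and Trav3-3 (0.00727). The causes were not tested. Restricting Trav rows by their own windows was also chosen after seeing the data. Same-numbered libraries deviated together for 3 of the 4 numbers (correlations 0.181, 0.415, -0.055 and 0.301), and ctrl library 3 correlated best with TKO library 4 (0.145), so the numbers were not taken as pairs. A replicate block raised the genes called to 800, called 0 members and left the differences of the Trav distal sum at 0.126 and the Traj sum at 0.114. Between 5213 and 8042 Trav counts per library limit the shares.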
